A study of Mus musculus with 6 samples.

Results

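Imprinted genes are genes of which the cell uses mainly the copy inherited from 1 parent, because that copy and its partner carry different DNA methylation at a shared control region. They lie in clusters in which maternally and paternally expressed genes alternate, often around a long noncoding RNA. Many act on fetal and early postnatal growth: Igf2 is a growth factor, whereas Cdkn1c, Grb10 and Igf2r restrain growth. In growth plate cartilage the cyclin-dependent kinase inhibitor p57, the product of Cdkn1c, is known to be needed for chondrocytes to leave the cell cycle and mature. The set held 40 mouse genes chosen by symbol from general knowledge of imprinting, and all 40 were found among the 47480 gene rows of the deposited table. Of these, 18 are known as maternally expressed and 22 as paternally expressed, several of them only in some tissues such as placenta or brain. The RNA values do not separate the parental copies, so every value is the sum of both.

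A2ARKO chondrocytes came from neonatal mice that lack the adenosine receptor encoded by Adora2a, which couples to Gs and raises cAMP, and WT chondrocytes came from the C57BL/6 mice on whose background the knockout was bred. Both lines were raised in the same facility, and no treatment is named for either. Each library held RNA of trypsinized primary cells pooled over 1 whole litter, with 3 litters in each group, so a replicate is a litter pool and p-values measure the spread between such pools. The study asked what drives osteoarthritis, the loss of joint cartilage.

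Adora2a, the deleted gene, was checked first. It stood at 0.41, 0.54 and 0.66 FPKM (fragments scaled to kilobases of gene length and to M fragments, M being mega) in A2ARKO libraries 1, 2 and 3, against 9.36, 7.31 and 3.46 FPKM in WT libraries 1, 2 and 3, and the groups did not overlap. The log2 fold change came to -2.25 (SE 0.31, limma adjusted p = 0.0203). Adora2a reached 1 FPKM, the level needed for testing, in the WT libraries alone, where it was higher, so its limma p-values support nothing. A two-sided exact permutation test gave p = 0.1, and no smaller p can be reached with 3 libraries in each group. Without A2ARKO 1, 2 or 3 or WT 2 the adjusted p was 0.0824, 0.0955, 0.0864 and 0.0582, and with no filter it was 0.0533. Steps between low values put the depth at 51.5 to 58.1 M reads in A2ARKO libraries and 41.7 to 52.6 M reads in WT libraries. Of 11595 genes with at least 1 FPKM in at least 3 of the 6 libraries, 589 passed an adjusted p of 0.05 (5.08%), with 384 higher (3.31%) and 205 lower (1.77%) in A2ARKO. That count was 120, 50 and 75 without A2ARKO 1, 2 and 3, 900 without WT 1 and 300 without WT 2. The libraries also differed in markers of the cells they held. The summed FPKM of 12 chondrocyte markers was 2257, 4540 and 6374 in A2ARKO and 25880, 1343 and 488.9 in WT, so WT 1 was the richest library in cartilage transcripts and WT 3 the poorest. Skeletal muscle markers summed to 17.1, 5.38 and 8.92 FPKM in A2ARKO and to 4.41, 871.5 and 12.7 FPKM in WT. Macrophage markers summed to 50.3, 29.5 and 25.7 FPKM in A2ARKO and to 177.3, 1855 and 128.7 FPKM in WT, with WT 2 highest in both lists. In such bulk samples, fewer cells of a type and less RNA per cell cannot be told apart.

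Most tested genes of this set had lower values in A2ARKO chondrocytes, and few of these differences passed the test. This holds for the chosen 40, since 17 further imprinted genes that were tested had 9 log2 fold changes above 0 and 8 below. Of the 40 genes, 30 reached the level needed for testing and 10 did not. Dio3, which encodes the deiodinase that inactivates thyroid hormone, rose, and 3 genes fell: Meg3, a long noncoding RNA of the same chromosome domain, Cdkn1c, and Grb10, an adaptor that dampens insulin and IGF1 receptor signalling. The other 26 tested members did not pass. Members called lower numbered 7 without WT 1, 4 without WT 3 and 1 without WT 2 or A2ARKO 1. The 7 include Mirg, which passed the filter through the WT libraries alone. No member was called lower without A2ARKO 2 or 3, and none was called higher without any 1 of the A2ARKO libraries. Log2 fold changes were below 0 in 27 of 30 tested members, where 49.6% of all tested genes were below 0. The median log2 fold change of the 30 was -0.43, beside 0.0 over all tested genes. At an unadjusted p below 0.05, 11 members were lower and 1 was higher, where 10.4% of all tested genes were lower and 14.3% higher. All 3 A2ARKO libraries lay below all 3 WT libraries for 14 of the 30, and above them for 1, while the groups overlapped for 15. The share of all tested genes with such a separation was 14.9% lower and 18.0% higher.

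Of the 30 tested members, 28 had at least 1 FPKM in all 6 libraries. Of those 28, 25 had a log2 fold change below 0 and 13 were separated with A2ARKO lower. Mirg was the member that passed the filter through the WT libraries alone. When every library was rescaled to the same sum of FPKM, 28 of 30 members were below 0, beside 64.7% of all tested genes, and the medians were -0.55 for the members and -0.10 for all genes. Under that rescaling 1 member was called higher and 3 lower, where 1.54% of all tested genes were called higher and 1.47% lower. The 3 lower were Cdkn1c, Meg3 and Zim1. Zim1 was gained (limma adjusted p = 0.0289) and Grb10 lost (0.0704). Rescaling moved the share of higher calls among all called genes to 51.1%, against 65.2% as deposited. Separation with A2ARKO lower then held for 17 members (19.2% of all tested genes) and with A2ARKO higher for 1 (8.61%).

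The cumulative curve of log2 fold changes shows the members to the left of all tested genes over most of its length. The exception at its right end is Dio3.

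**Figure D1:**
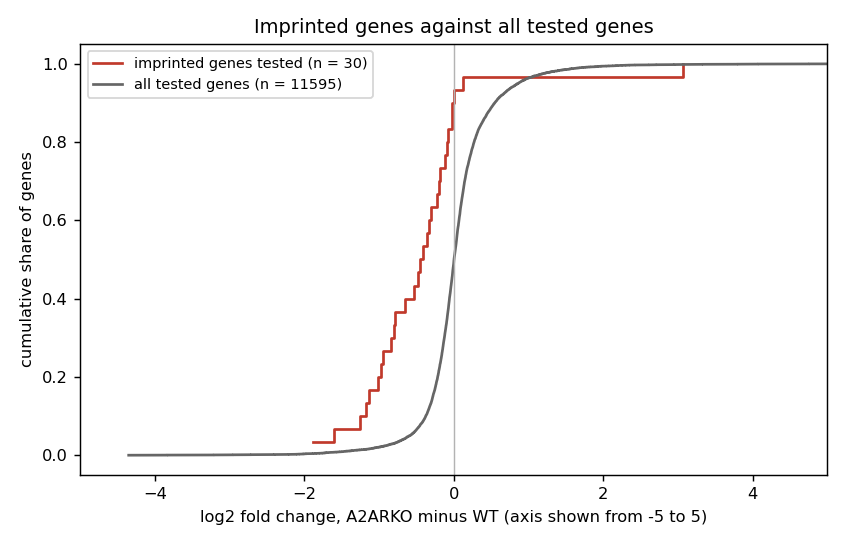
Cumulative share of genes (vertical axis) by log2 fold change, A2ARKO minus WT, in units of log2(FPKM + 1) (horizontal axis), for the 30 tested imprinted genes in red and all 11595 tested genes in grey. The members reach 0 with 27 of 30 genes below it, and 1 gene, Dio3, lies far to the right at 3.07.

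Both parental classes showed the same tendency. Among 18 maternally expressed genes, 15 were tested, 3 fell, none rose and 8 were separated with A2ARKO lower, at a median log2 fold change of -0.45. Among 22 paternally expressed genes, 15 were tested, 1 rose, none fell and 6 were separated with A2ARKO lower, at a median of -0.42. The difference between the classes was not tested. At an unadjusted limma p below 0.05, 6 maternally expressed genes were lower and 0 higher, and 5 paternally expressed genes were lower and 1 higher. The maternal counts of separated and lower genes include Mirg, which passed the filter through the WT libraries alone. Of all tested genes, 1.77% fell, 3.31% rose and 14.9% were separated with A2ARKO lower. At an unadjusted limma p below 0.05, 10.4% of them were lower and 14.3% higher.

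H19, Igf2 and Mest averaged at least 100 FPKM over the 6 libraries, 16 members lay between 10 and 100 FPKM, 11 between 1 and 10 FPKM, and 10 below 1 FPKM. The 40 members together held 0.648%, 0.904% and 0.913% of all FPKM in A2ARKO libraries 1, 2 and 3, against 0.99%, 2.55% and 2.18% in WT libraries 1, 2 and 3. The highest A2ARKO share was below the lowest WT share. H19, Igf2 and Mest made up 78.6% to 85.4% of the members' FPKM in A2ARKO and 81.1% to 90.8% in WT. The summed FPKM of the other 37 members was also separated, at 373.1, 414.9 and 402.1 in A2ARKO against 549.3, 591.3 and 596.8 in WT.

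**Figure D2:**
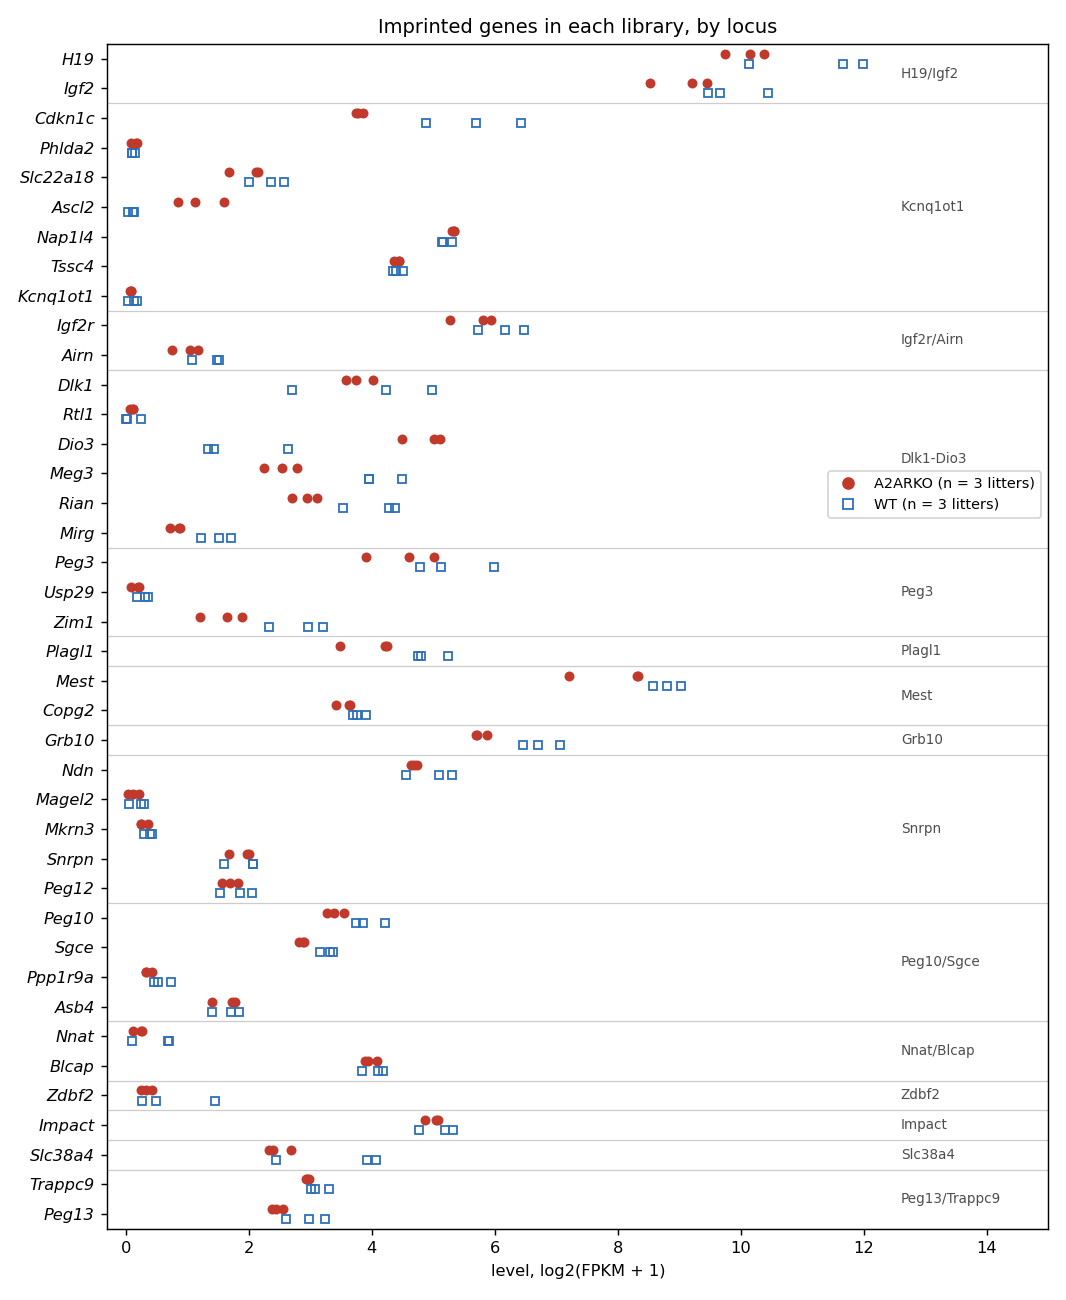
Level of each of the 40 imprinted genes in each library as log2(FPKM + 1), grouped by locus, with filled red circles for the 3 A2ARKO libraries and open blue squares for the 3 WT libraries. Red circles lie left of all blue squares for genes such as Cdkn1c, Meg3, Rian, Zim1, Plagl1, Mest and Grb10, and right of them for Dio3 and Ascl2.

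The Dlk1-Dio3 domain of chromosome 12 held both the largest rise and the second largest fall among the 30 tested members on the log2(FPKM + 1) scale. Its paternally expressed genes encode proteins, namely the membrane ligand Dlk1, the retrotransposon-derived Rtl1 and Dio3. Its maternally expressed genes are the noncoding RNAs Meg3, Rian, a host of small nucleolar RNAs, and Mirg, a host of microRNAs. From the start of Dlk1, Meg3 begins 88.2 kb, Rian 151.1 kb, Mirg 276.9 kb and Dio3 826.2 kb along the chromosome. Dio3 (mm10 chromosome 12, 110279068 to 110281097, plus strand) and Meg3 (109541001 to 109571726, plus strand) thus sit near opposite ends and moved in opposite directions.

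Dio3 was at 31.1, 33.6 and 21.4 FPKM in A2ARKO libraries 1, 2 and 3, against 5.20, 1.52 and 1.69 FPKM in WT libraries 1, 2 and 3. The lowest A2ARKO value was above the highest WT value. The means were 28.7 ± 6.44 FPKM in A2ARKO and 2.80 ± 2.08 FPKM in WT (SD, n = 3 each), a ratio of 10.2. On the log2(FPKM + 1) scale, which understates changes of low genes, Dio3 rose by 3.07 at an SE of 0.38 (limma adjusted p = 0.015). Leaving out any A2ARKO library ended the call, with adjusted p of 0.071, 0.0808 and 0.0602 without A2ARKO 1, 2 and 3, while the log2 fold change stayed between 2.84 and 3.49 over all 6 omissions.

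Meg3 was at 5.91, 4.83 and 3.75 FPKM in A2ARKO libraries 1, 2 and 3, against 14.5, 14.5 and 21.6 FPKM in WT libraries 1, 2 and 3. No A2ARKO library reached the WT range. Meg3 fell by 1.61 on the log2 scale at an SE of 0.20 (limma adjusted p = 0.0161), and its mean was 3.49-fold higher in WT. The call was lost without A2ARKO 2 (adjusted p = 0.0832) or A2ARKO 3 (0.072). Rian had 6.70, 7.63 and 5.53 FPKM in A2ARKO and 10.5, 18.3 and 19.8 FPKM in WT. Its groups did not overlap, and its log2 fold change of -1.14 had an adjusted p of 0.0558 in limma, and 0.0114 without WT 1. Mirg had 0.85, 0.83 and 0.64 FPKM in A2ARKO and 1.33, 2.27 and 1.87 FPKM in WT, also without overlap, with -0.66 on the log2 scale (limma adjusted p = 0.0622, and 0.0279 without WT 1). Mirg passed the filter through the WT libraries alone, where it was higher, so its p-values support nothing. All 3 maternally expressed noncoding RNAs of the domain had their lowest values in the A2ARKO libraries, and Meg3 alone of them passed.

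The paternally expressed neighbours of Dio3 gave a different picture. Dlk1 had 15.1, 10.9 and 12.3 FPKM in A2ARKO and 5.51, 30.6 and 17.8 FPKM in WT. The WT libraries spanned the whole A2ARKO range, and the log2 fold change of -0.20 had a standard error of 0.56 (limma adjusted p = 0.862). Without WT 2 the sign turned to 0.31. Dlk1 is a marker of immature muscle and fat precursors, and WT 2, its highest library, was also the library with the highest muscle marker sum; the part of muscle cells in this value was not tested. Rtl1 was at most 0.09 FPKM in A2ARKO and 0.18 FPKM in WT and was not tested. Its exons are overlapped on the opposite strand by microRNA genes, and whether reads were counted by strand is not stated in the sources at hand.

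Ratios within a library do not depend on how the library was scaled. Dio3 over Meg3 was 5.26, 6.95 and 5.70 in A2ARKO libraries 1, 2 and 3, against 0.358, 0.105 and 0.0783 in WT libraries 1, 2 and 3. Dio3 thus exceeded Meg3 in every A2ARKO library and was below it in every WT library. Rian over Meg3 was 1.13, 1.58 and 1.47 in A2ARKO and 0.725, 1.27 and 0.917 in WT, which overlap. Mirg over Meg3 was 0.144, 0.172 and 0.171 in A2ARKO and 0.0917, 0.157 and 0.0866 in WT, which overlap as well.

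**Figure D3:**
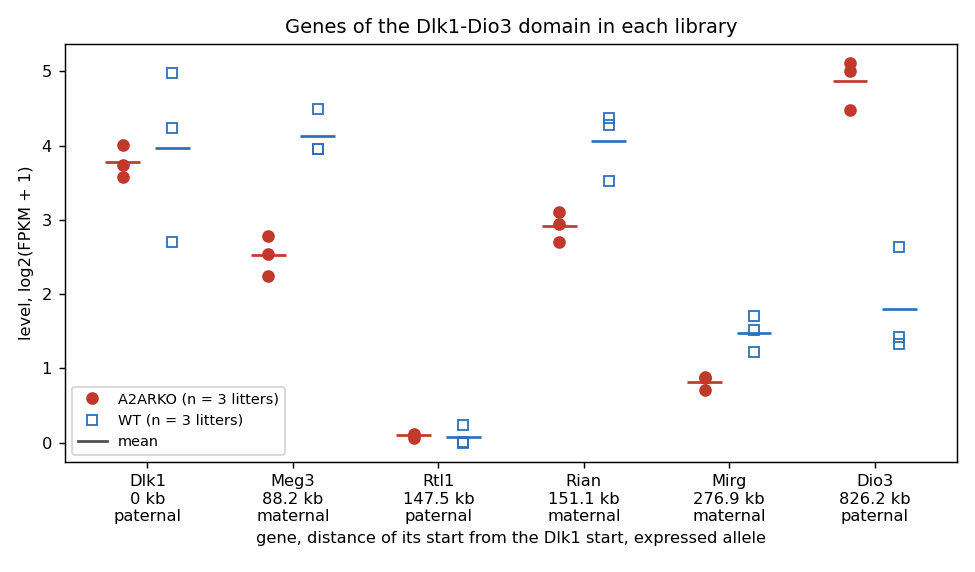
Level of the 6 genes of the Dlk1-Dio3 domain in each library as log2(FPKM + 1), ordered by the distance of their starts from the Dlk1 start, with filled red circles for A2ARKO, open blue squares for WT and lines at the group means. Meg3, Rian and Mirg lie lower in all 3 A2ARKO libraries, Dio3 lies higher in all 3, and Dlk1 overlaps.

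The bases just before the starts of Meg3 and Dio3 are shown because these genes moved in opposite directions within 1 domain. Both come from RefSeq on GRCm38.p6, plus strand, and capitals mark TGACGTCA, the full cAMP response element, the palindrome bound by CREB, a factor that cAMP signalling activates. The Meg3 window spans chr12:109540746-109540995 and the Dio3 window, cut where the annotated transcript begins, spans chr12:110278980-110279067.
Meg3: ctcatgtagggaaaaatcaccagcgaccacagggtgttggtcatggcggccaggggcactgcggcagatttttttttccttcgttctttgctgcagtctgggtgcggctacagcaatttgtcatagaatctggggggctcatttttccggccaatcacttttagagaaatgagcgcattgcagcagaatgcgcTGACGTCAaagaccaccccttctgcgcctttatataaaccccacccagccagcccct
Dio3: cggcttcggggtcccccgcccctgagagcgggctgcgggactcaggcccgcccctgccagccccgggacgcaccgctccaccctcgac
The element begins 57 bases before the Meg3 start, and the letters TGACGTCA are not in the Dio3 window. Windows of 250 bases before a start were on hand for 31 of the 40 members, 46 windows in all. On either strand, TGACGTCA was in 3 of these 46 windows (6.52%), those of Meg3, Peg3 and Zdbf2, and in 1.55% of 32851 windows over all genes. Its shorter core TGACG, which every full element also holds, was in 12 member windows (26.1%) and in 17.8% of all windows. GGGGCCCC, the core of the motif of the zinc finger factor encoded by Plagl1, was in 2 member windows (4.35%), of Peg3 and Ppp1r9a, and in 0.889% of all windows. These are matches of letters and not measured binding.

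The maternally expressed RNAs of the domain are also precursors of microRNAs, and the deposited table has rows for the hairpins, which a library of long RNA measures poorly. Of 14 hairpin genes within Mirg, 7 were at 0 in every library, and the highest value among the 14 was 1.92 FPKM, for Mir409 in WT 3. Mir409, which was the only hairpin tested, had 1.23, 0.22 and 0.48 FPKM in A2ARKO and 0.30, 1.02 and 1.92 FPKM in WT, a log2 difference of -0.31 (limma adjusted p = 0.641). Both hairpins within Meg3, Mir770 and Mir1906-1, were at 0 in all 6 libraries. They overlap Meg3 exons on the same strand, by 94 and 80 bases, as some hairpins within Mirg overlap Mirg exons. How reads shared between genes were counted is not known here, so a 0 need not mean absent RNA. The mature sequences below, from RefSeq on GRCm38.p6, show the 1 seed that hosted microRNAs shared and the microRNA whose hairpin was tested. Capitals mark the seed, bases 2 to 8, which pairs with targets.
mmu-miR-453: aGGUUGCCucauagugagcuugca
mmu-miR-496a-5p: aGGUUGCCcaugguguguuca
mmu-miR-409-3p: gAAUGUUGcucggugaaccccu
The first and second share GGUUGCC and lie in Mirg, as does miR-409-3p with its own seed. Mature microRNAs were not measured here.

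Cdkn1c (mm10 chromosome 7, 143458339 to 143461050, minus strand) showed the largest fall among the 30 tested members on the log2(FPKM + 1) scale. It was at 12.4, 12.7 and 13.4 FPKM in A2ARKO libraries 1, 2 and 3, against 51.0, 84.8 and 28.5 FPKM in WT libraries 1, 2 and 3. The A2ARKO libraries were close to each other and the WT libraries were spread, without overlap. Means were 12.8 ± 0.505 FPKM in A2ARKO and 54.8 ± 28.3 FPKM in WT (SD, n = 3 each), and WT was 4.27-fold higher. Cdkn1c fell by 1.88 on the log2 scale at an SE of 0.37 (limma adjusted p = 0.0457). Of the omissions, the call was held without WT 3 alone (0.0152). It was lost without A2ARKO 1, 2 or 3 (adjusted p of 0.143, 0.175 and 0.162), WT 1 (0.0643) or WT 2 (0.0553). It was also lost with no filter on low values (0.101) and with the filter on a mean of at least 0.5 FPKM (0.0525).

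The rest of the Kcnq1ot1 domain, which extends over distal chromosome 7 around Cdkn1c, did not follow it. Nap1l4, a histone chaperone, had 38.3, 39.4 and 39.2 FPKM in A2ARKO and 34.1, 38.7 and 34.8 FPKM in WT, at a log2 fold change of 0.12. Tssc4 was level at 20.4 ± 0.641 FPKM in A2ARKO and 20.4 ± 1.30 FPKM in WT (SD, n = 3 each). Its log2 fold change of 0.0 had a standard error of 0.08 and turned to -0.11 under the common sum. Slc22a18, a transporter gene, had 2.19, 3.42 and 3.35 FPKM in A2ARKO and 4.95, 3.01 and 4.13 FPKM in WT, which overlap (log2 fold change of -0.33, limma adjusted p = 0.354). Kcnq1ot1, the paternally expressed RNA that silences the domain in cis, was at most 0.06 FPKM in A2ARKO and 0.13 FPKM in WT. Phlda2, a restrainer of placental growth, was at most 0.14 FPKM in any library. Neither was tested.

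Ascl2, a transcription factor of trophoblast and intestinal stem cells, lay in the same domain and below the filter. It stood at 0.80, 1.17 and 2.02 FPKM in A2ARKO libraries 1, 2 and 3, about 67, 110 and 173 reads, against 0.10, 0.09 and 0.02 FPKM in WT libraries 1, 2 and 3, about 7, 7 and 2 reads. Every A2ARKO value was above every WT value. With a filter on a mean of at least 0.5 FPKM in its place, Ascl2 entered the test at a log2 fold change of 1.09 and a limma adjusted p of 0.049. It passed that filter through the A2ARKO libraries alone, where it was high, so it had to differ and the p supports nothing.

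Grb10 (mm10 chromosome 11, 11930508 to 12038683, minus strand) was at 51.4, 57.8 and 50.5 FPKM in A2ARKO libraries 1, 2 and 3, against 86.4, 102.8 and 132.1 FPKM in WT libraries 1, 2 and 3. The groups were well apart. Means were 53.2 ± 3.94 FPKM in A2ARKO and 107.1 ± 23.1 FPKM in WT (SD, n = 3 each). Grb10 fell by 0.98 on the log2 scale at an SE of 0.17 (limma adjusted p = 0.0366). The adjusted p was 0.0704 with all libraries at the same sum, 0.0517 after quantile normalization and 0.0797 with no filter on low values. It was 0.125, 0.134 and 0.157 without A2ARKO 1, 2 and 3, and 0.0751 without WT 2.

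H19 and Igf2, the noncoding RNA and growth factor gene that share enhancers at the other end of the chromosome 7 cluster, were the most abundant members. H19 had 855.6, 1139 and 1324 FPKM in A2ARKO libraries 1, 2 and 3, against 1124, 4032 and 3248 FPKM in WT libraries 1, 2 and 3. WT 1 lay within the A2ARKO range and the other WT libraries were well above it. The log2 fold change was -1.17 at an SE of 0.55 (limma adjusted p = 0.251, and 0.0428 without WT 1). Igf2 had 368.4, 586.7 and 700.02 FPKM in A2ARKO and 709.2, 1388 and 808.1 FPKM in WT. Its groups did not overlap, although the highest A2ARKO and the lowest WT values were next to each other, and its log2 fold change was -0.80 (limma adjusted p = 0.251). H19 over Igf2 was 2.32, 1.94 and 1.89 in A2ARKO and 1.58, 2.91 and 4.02 in WT, so the ratio overlapped. WT 1, with the lowest ratio, was the library richest in chondrocyte markers, and WT 3, with the highest ratio, was the poorest; the part of cell makeup in this was not tested. Mir675, the hairpin within H19, was at 0 in all 6 libraries, and Mir483, within Igf2, was at most 2.75 FPKM. Mir675 overlaps H19 exons on the same strand by 84 bases, so its 0 carries the same limit as those of the Meg3 hairpins.

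Igf2r encodes the receptor that takes IGF2 up for degradation, and Airn is the paternally expressed antisense RNA that silences it. Igf2r had 37.5, 55.0 and 60.01 FPKM in A2ARKO and 87.8, 51.8 and 70.6 FPKM in WT, which overlap, with -0.45 on the log2 scale (limma adjusted p = 0.331). Airn had 0.68, 1.07 and 1.25 FPKM in A2ARKO and 1.85, 1.10 and 1.78 FPKM in WT, at -0.36 (0.263). Both genes had their lowest value in A2ARKO 1 and their highest in WT 1. Igf2r over Airn was 55.1, 51.4 and 48.0 in A2ARKO and 47.5, 47.1 and 39.6 in WT. Airn lies antisense across Igf2r, so without a stated strand setting its reads could include those of Igf2r introns.

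Of the Peg3 domain on proximal chromosome 7, Zim1, a maternally expressed zinc finger gene, was separated between the groups. It had 1.30, 2.13 and 2.69 FPKM in A2ARKO and 8.19, 6.82 and 4.0 FPKM in WT. Its log2 fold change of -1.25 had a limma adjusted p of 0.0581, of 0.0289 under the common sum and of 0.0297 without WT 3. Peg3, a paternally expressed zinc finger gene, had 14.1, 23.3 and 31.2 FPKM in A2ARKO and 62.2, 33.7 and 26.6 FPKM in WT, where A2ARKO 3 lay above WT 3 (log2 fold change of -0.79, limma adjusted p = 0.279). Peg3 over Zim1 was 10.8, 11 and 11.6 in A2ARKO, against 7.59, 4.94 and 6.65 in WT, so the ratio was separated between the groups, and a difference in change between the genes was not tested. Usp29, a ubiquitin protease gene, stayed at or below 0.16 FPKM in A2ARKO and 0.28 FPKM in WT.

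Plagl1, a zinc finger factor that in mouse is known to act on a network of other imprinted genes, had 10.1, 17.5 and 17.9 FPKM in A2ARKO and 25.9, 27.0 and 36.5 FPKM in WT. The groups did not overlap, and the log2 fold change of -0.95 missed the threshold (limma adjusted p = 0.0829). Plagl1 was the only member on the chromosome of the deleted receptor gene, 62.3 Mb away from it. Mest, a gene of mesodermal tissue whose product belongs to the hydrolase-fold family, had 147.3, 317.8 and 319.7 FPKM in A2ARKO and 518.3, 444.7 and 377.7 FPKM in WT. It was separated too, with A2ARKO 1 far below the others, at -0.84 (limma adjusted p = 0.2). Copg2, a coatomer subunit gene that runs towards Mest from the opposite strand, had 9.69, 11.4 and 11.6 FPKM in A2ARKO and 14.0, 11.97 and 12.5 FPKM in WT, at -0.22 (0.245). Exons of the pair share 912 bases, 23.1% of Mest and 17.8% of Copg2. Strand use and the handling of reads shared between genes are not known here. Reads from these bases could therefore be misassigned or missing in either gene.

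In the Peg10/Sgce domain of chromosome 6, the A2ARKO values of the most abundant genes lay below those of WT without passing the test. Sgce, epsilon-sarcoglycan, had 6.01, 6.40 and 6.46 FPKM in A2ARKO and 9.35, 7.94 and 8.98 FPKM in WT, at a log2 fold change of -0.42 at an SE of 0.09 (limma adjusted p = 0.0525, and 0.0489 after quantile normalization). Peg10, a retrotransposon-derived gene needed for the placenta, had 9.47, 10.7 and 8.64 FPKM in A2ARKO and 13.5, 12.3 and 17.6 FPKM in WT, at -0.53 (0.0948). Both pairs of groups were without overlap. Asb4, farther along, had 1.64, 2.30 and 2.41 FPKM in A2ARKO and 1.64, 2.27 and 2.59 FPKM in WT, at -0.02. Ppp1r9a, which encodes the actin-binding protein neurabin, was below the filter at 0.25 to 0.34 FPKM in A2ARKO and 0.38 to 0.66 FPKM in WT.

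The Snrpn domain, the counterpart of the human Prader-Willi region, showed no called gene among 3 tested, and 0 of the 3 had an unadjusted limma p below 0.05. Ndn, a growth-restraining MAGE family gene, had 25.6, 24.01 and 24.7 FPKM in A2ARKO and 22.6, 33.2 and 38.7 FPKM in WT, at -0.30 (limma adjusted p = 0.396, and 0.0448 without WT 1). Snrpn, a splicing protein gene, averaged 2.71 ± 0.449 FPKM in A2ARKO and 2.80 ± 0.664 FPKM in WT (SD, n = 3 each), and Peg12, a FRAT family gene, 2.25 ± 0.290 FPKM in A2ARKO and 2.54 ± 0.623 FPKM in WT. Magel2 and Mkrn3 were at or below 0.28 FPKM in A2ARKO and 0.35 FPKM in WT. Part of the Snrpn exons also belongs to Snurf, whose own row was at 0 throughout.

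Among the single loci, Slc38a4, an amino acid transporter gene, had 5.43, 4.24 and 4.0 FPKM in A2ARKO and 4.41, 14.2 and 15.8 FPKM in WT, with WT 1 inside the A2ARKO range (log2 fold change of -1.01, limma adjusted p = 0.219, and 0.01 without WT 1). WT 1 was likewise the lowest WT library for H19, Igf2, Dlk1, Rian, Mirg, Plagl1, Grb10 and Ndn, among other members. It was the highest WT library for others, such as Mest, Peg3, Zim1, Igf2r and Dio3. Peg13, a noncoding RNA inside an intron of Trappc9, had 4.88, 4.42 and 4.21 FPKM in A2ARKO and 6.84, 5.07 and 8.45 FPKM in WT, at -0.48 (limma adjusted p = 0.155). Trappc9, a vesicle tethering subunit, had 6.68, 6.62 and 6.87 FPKM in A2ARKO and 8.91, 7.46 and 7.09 FPKM in WT, at -0.19 (0.303). Both were separated, Trappc9 by a narrow margin. Impact, an inhibitor of the stress kinase GCN2, averaged 30.9 ± 2.48 FPKM in A2ARKO and 33.4 ± 6.51 FPKM in WT, and Blcap 14.7 ± 1.08 FPKM in A2ARKO and 15.6 ± 2.03 FPKM in WT (SD, n = 3 each), both with overlap. Nnat, the neuronal neighbour of Blcap, was at most 0.20 FPKM in A2ARKO and 0.63 FPKM in WT. Zdbf2 was at most 0.35 FPKM in A2ARKO and reached 1.73 FPKM in WT 2 alone.

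**Figure D4:**
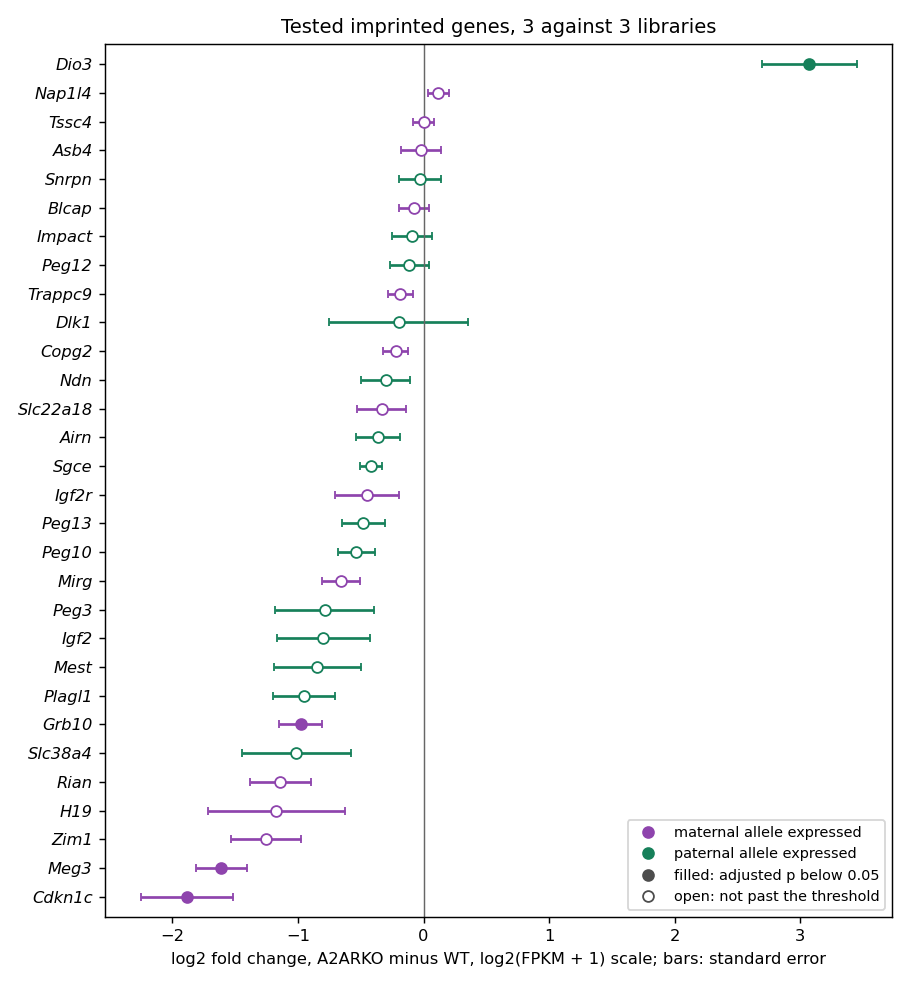
Log2 fold change, A2ARKO minus WT, in units of log2(FPKM + 1) with its standard error (SE) for the 30 tested imprinted genes, sorted by value, with purple for maternally and green for paternally expressed genes and filled points where the limma adjusted p was below 0.05. Dio3 at 3.07 is the filled point on the right, and Grb10, Meg3 and Cdkn1c, from -0.98 to -1.88, are those on the left.

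The differences between libraries of 1 group were wider for the imprinted genes than for the typical gene. The median SD of log2(FPKM + 1) over tested members was 0.187 in A2ARKO and 0.287 in WT, against 0.097 in A2ARKO and 0.192 in WT over all tested genes. Marker lists differed as well, in both directions. Of 12 tested chondrocyte markers, 11 had a log2 fold change above 0 and 1 below, where 49.6% of all tested genes were below 0. Their median was 0.90, the groups overlapped for all 12, and limma called 0. The 4 tested skeletal muscle markers, at a median of -1.86, overlapped too. Of 9 tested fibroblast and tendon markers, 6 were separated with A2ARKO lower, at a median log2 fold change of -0.89 and summed levels of 4282, 2566 and 2423 FPKM in A2ARKO against 8789, 6924 and 6264 FPKM in WT, and Dpt, which encodes the matrix protein dermatopontin, fell by 2.22 (limma adjusted p = 0.0354). Dpt was called in 1 of 6 omissions, without WT 3, with adjusted p of up to 0.144. Of 9 tested macrophage markers, 7 were separated with A2ARKO lower at a median of -2.83. None of these 9 was called by limma, and 6 were lower at an unadjusted p below 0.05. Among them C1qb, at most 0.29 FPKM in A2ARKO, passed the filter through the WT libraries alone, where it was higher. Its separation and p therefore support nothing, yet the 7, the 6 and the median include it. How many other markers of this list passed the filter in that way was not counted. The part of these cells in the imprinted gene values, Dio3 included, was not tested. Endothelial marker sums overlapped at 1.58 to 1.94 FPKM in A2ARKO and 1.16 to 3.76 FPKM in WT. The summed level of 4 adipocyte markers was 99.05, 38.6 and 70.8 FPKM in A2ARKO against 29.3, 32.1 and 36.6 FPKM in WT. Of these 4, 2 were separated with A2ARKO higher and 2 overlapped, and limma called 0, with 2 higher at an unadjusted p below 0.05. Over all tested genes, 14.9% were separated with A2ARKO lower and 18.0% with A2ARKO higher. Limma called 1.77% lower and 3.31% higher, and 10.4% were lower and 14.3% higher at an unadjusted p below 0.05.

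**Figure D5:**
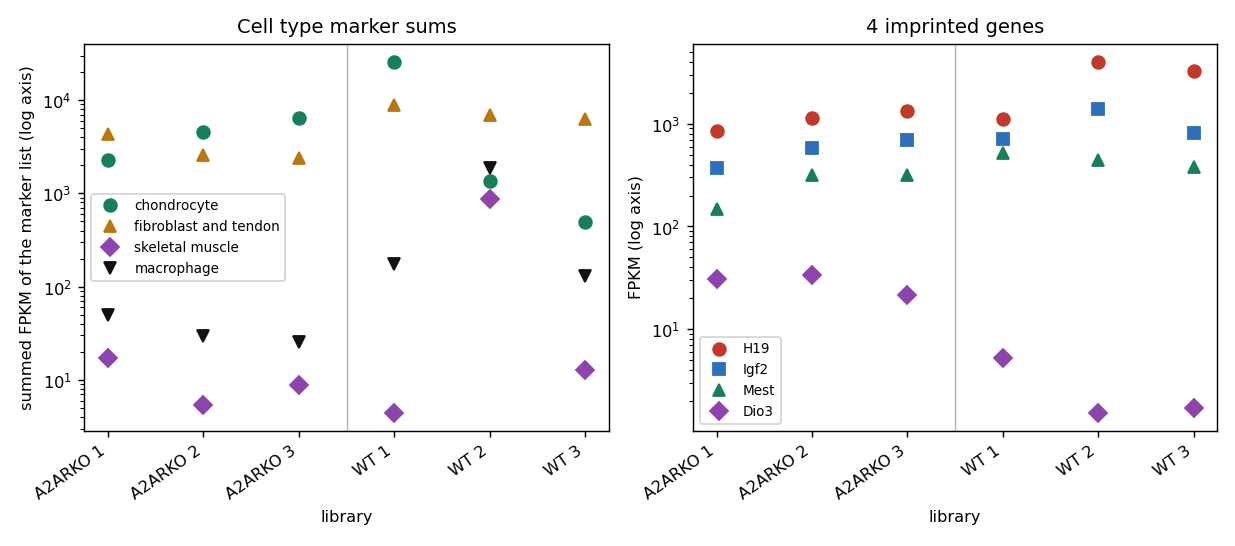
Left, summed FPKM of chondrocyte, fibroblast and tendon, skeletal muscle and macrophage markers in each library, and right, FPKM of H19, Igf2, Mest and Dio3 in the same libraries, both on log axes with A2ARKO left of WT. WT 1 has the highest chondrocyte sum of 25880 FPKM and the lowest H19 value of WT, 1124 FPKM, whereas WT 2 has the highest muscle and macrophage sums and the highest H19 value, 4032 FPKM.

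Genes linked to the members by function or position were compared from lists. A further 35 imprinted genes, of which 17 were tested, had a median log2 fold change of 0.01. Of these 17, 9 were above 0 and 8 below, and 2 were separated with A2ARKO lower (14.9% of all tested genes). Members and further genes together had 35 of 47 tested genes below 0 (49.6% of all tested genes), at a median of -0.21. Limma called 0 of the further genes, where 3.31% of all tested genes rose and 1.77% fell. At an unadjusted limma p below 0.05, 1 of the 17 was lower in A2ARKO, where 10.4% of all tested genes were lower. That gene, Gnas, which encodes the stimulatory G protein that couples the deleted receptor to cAMP, averaged 112.0 ± 4.35 FPKM in A2ARKO and 149.4 ± 28.5 FPKM in WT (SD, n = 3 each; limma adjusted p = 0.189). Of 27 tested genes for DNA methylation and imprint maintenance, limma called 0, with 4 higher and 3 lower at an unadjusted p below 0.05. Over all tested genes 14.3% were higher and 10.4% lower at that level, so this list was near the share of all genes. The groups were separated for 5 with A2ARKO higher and 5 with A2ARKO lower, beside 18.0% and 14.9% of all tested genes. The de novo DNA methyltransferase gene Dnmt3a averaged 2.40 ± 0.172 FPKM in A2ARKO and 3.90 ± 0.571 FPKM in WT, at -0.52 (limma adjusted p = 0.0572). The methylcytosine dioxygenase gene Tet3 averaged 1.99 ± 0.122 FPKM in A2ARKO and 3.49 ± 0.686 FPKM in WT, at -0.58 (limma adjusted p = 0.0582). Dnmt1 and Uhrf1 of the same list, named after their values were seen, went the other way, also without overlap. Dnmt1 averaged 26.6 FPKM in A2ARKO and 17.2 FPKM in WT, at 0.62 (limma adjusted p = 0.0872). Uhrf1 averaged 13.5 FPKM in A2ARKO and 7.32 FPKM in WT, at 0.85 (limma adjusted p = 0.0948).

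Cell cycle genes were set beside Cdkn1c. Of 24 tested, 4 rose and none fell, where 3.31% of all tested genes rose and 1.77% fell, and the median log2 fold change was 0.55. At an unadjusted limma p below 0.05, 11 were higher and 1, Cdkn1b, was lower, beside 14.3% and 10.4% of all tested genes, and the groups overlapped for 12 of the 24. Rrm2, a subunit of ribonucleotide reductase, rose by 2.13 (limma adjusted p = 0.0117), and the replication helicase gene Mcm5, cyclin E1 gene Ccne1 and Cdkn1a, the gene of the inhibitor p21, by 1.02, 0.98 and 0.72. Cdkn1a and Cdkn1b encode the other inhibitors of the family of Cdkn1c. Cdkn1a had 215.3, 234.2 and 258.2 FPKM in A2ARKO against 141.9, 145.9 and 140.3 FPKM in WT (limma adjusted p = 0.0354). Cdkn1b, which encodes p27 and is named after its values were seen, had 10.5, 9.5 and 8.63 FPKM in A2ARKO against 14.6, 13.1 and 18.9 FPKM in WT. Its groups did not overlap either, with A2ARKO lower, at a log2 fold change of -0.64 that missed the threshold (limma adjusted p = 0.0657). Without A2ARKO 1, 2 or 3, none of the 4 stayed past the threshold, and under the common sum Rrm2 alone did (adjusted p = 0.0196).

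In the IGF pathway, around Igf2, Igf2r and Grb10, 1 of 18 tested genes rose and 1 fell, where 3.31% of all tested genes rose and 1.77% fell. Igfbp5, an IGF binding protein, had 11.6, 33.0 and 28.4 FPKM in A2ARKO against 301.6, 263.6 and 148.5 FPKM in WT and fell by 3.30 (limma adjusted p = 0.0196). Igfbp7 had 638.6, 547.9 and 560.5 FPKM in A2ARKO against 298.4, 224.4 and 302.8 FPKM in WT and rose by 1.09 (limma adjusted p = 0.0357). Igfbp5 was called in 3 of 6 omissions of a library and Igfbp7 in 2 of 6, and Igfbp7 had an adjusted p of 0.0746 under the common sum.

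Genes whose start lay within 250 kb of a member's start were on balance level, and some of them are also among the further imprinted genes. Of 294 such genes other than the members, 48 were tested, their median log2 fold change was 0.0, 3 rose and 1 fell, where 3.31% of all tested genes rose and 1.77% fell. The manganese superoxide dismutase gene Sod2, near Igf2r, rose by 1.95, the pyruvate dehydrogenase kinase gene Pdk4, near Asb4, by 1.29, and Tnfrsf23, near Nap1l4, by 0.78. Lsp1, a leukocyte actin-binding protein gene near H19, fell by 0.93 (limma adjusted p = 0.013). Each of these 4 calls was lost without A2ARKO 1, 2 or 3. Sod2 and Lsp1 were called in 3 of 6 omissions of a library (adjusted p of up to 0.119 and 0.0832), Pdk4 in 2 (up to 0.126) and Tnfrsf23 in 0 (0.0597 to 0.188). At the common sum Pdk4 and Tnfrsf23 were at 0.0698 and 0.11.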

How the data were processed

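The authors deposited 1 table of FPKM with 47480 genes and 6 libraries, rounded to 2 decimals. HTSeq and the build mm10 are named, per the submitters' processing notes. The aligner, annotation and strand use were not given in the sources used here. Each column was assigned to its sample by title. FPKM scale each library to its total, so an abundant transcript can lower the others. Depth was read from the steps between low values of annotated genes of at most 150 bases, where at least 99.05% of values up to 10 reads were whole within 0.1 read. Exon lengths, coordinates and overlaps came from GENCODE M21 on GRCm38, which is mm10, with 45114 rows matched, so read numbers are approximate. Libraries of the same group differed by at least 16.5 times sampling noise (median chi-square) and were all counted as replicates.

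Genes with at least 1 FPKM in at least 3 libraries were fitted on log2(FPKM + 1) in R 4.3.3 with limma 3.58.1 (lmFit, eBayes with an intensity trend), two-sided, without a replicate block, and Benjamini-Hochberg adjusted over all 11595 genes. The fit was tested on simulated data. Same-numbered libraries did not deviate together (correlations of -0.521, -0.325 and -0.387), so the numbers do not pair them. Fold changes are A2ARKO minus WT. Alternatives covered the scaling, pseudocount, filter, trend, a replicate block and each library left out.

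All 40 members are named. From each other list, up to 4 called genes with the largest change are named. A list with no call has up to 2 genes of smallest unadjusted p named, and predicted genes give way. The members and lists were chosen with earlier results of these data known. Motifs were searched in the 250 bases before RefSeq starts, on both strands.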

Additional observations from a re-analysis of the deposited data

How the results depend on the processing

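With 3 litter pools a group, calls near the threshold moved with single libraries. The count of called genes over the whole table, 589, became 348 with all libraries at the same sum, 213 without a filter and 50 to 900 with 1 library left out. Members called higher, 1, became 2 with the filter on a mean of at least 0.5 FPKM. The added call was Ascl2, which passed that filter through the A2ARKO libraries alone, so it supports nothing. With 1 library left out the count was 0 to 1, the 0 being without A2ARKO 1, 2 or 3. Members called lower, 3, became 1 without a filter and 0 to 7 with 1 library left out. They numbered 7 without WT 1, 1 without WT 2, 4 without WT 3, 1 without A2ARKO 1 and 0 without A2ARKO 2 or 3. The 7 include Mirg, which passed the filter through the WT libraries alone. With a replicate block instead of none, 2 genes in all, 0 members higher and 0 members lower were called, but the shared numbers do not pair the libraries. Log2 fold changes below 0 were found in 24 to 28 of 30 tested members under all 14 alternatives. Some log2 fold changes close to 0 changed sign. Tssc4 was at -0.11 at the same sum, at -0.05 after quantile normalization and at -0.03 to 0.05 with 1 library left out. Over the omissions Dlk1 ranged from -0.83 to 0.31, Snrpn from -0.18 to 0.08, Peg12 from -0.25 to 0.0036, Asb4 from -0.15 to 0.09 and Impact from -0.25 to 0.02. The cause of these shifts was not tested. Rtl1 had at most about 57 reads in any library. Kcnq1ot1 had about 139 to 637 reads, but over 93092 exon bases, so its FPKM lay below the filter. Neither was tested.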
